A study of Rattus norvegicus with 6 samples.

Results

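Protease inhibitors of the serpin, stefin, cystatin, WAP domain and Kazal families were followed in back skin of Sprague-Dawley rats, an outbred laboratory strain. Members were all loci whose gene name in the count table begins with Serpin, Stfa, Wfdc and a digit, Spink and a digit, or Cst and a digit, together with Csta, Cstb and Slpi. This gave 86 of 34225 loci, of which 16 were clade B serpins, 13 clade A serpins, 11 other serpins, 6 stefins, 9 secreted cystatins, 18 WAP domain genes and 13 Kazal genes. The skin came from 3 groups of 2 libraries. Rats of the gefitinib group received this drug, a reversible inhibitor of EGFR, the receptor for epidermal growth factor, by mouth at 80 mg/kg a day. Rats of the afatinib group received this covalent inhibitor of EGFR and its relatives by mouth at 30 mg/kg a day. In both groups dosing ended when a rash appeared, so doses were unequal and the number of days may have been as well. Untreated rats were the controls; sex and age were not given in the sources used here. Nothing in the labels says whether the 2 libraries of a group came from separate rats, so p-values measure only the spread between these libraries, which may be technical.

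Serpins are suicide inhibitors: the protease cuts an exposed loop, the serpin folds around it, and both stay locked together. Clade B serpins lack a classical secretion signal and act mostly inside cells, many of them in keratinocytes and leukocytes. Stefins are small cytosolic inhibitors of cathepsins, and secreted cystatins block the same class of cysteine proteases outside the cell or in the secretory route. WAP domain proteins such as Slpi block serine proteases at epithelial surfaces, and Kazal inhibitors such as Spink5 restrain the kallikreins that shed the outer layer of the epidermis. In skin these families set the pace of cornification and shield the epidermis from neutrophil enzymes.

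The libraries held 17206456 to 22086673 counts. Levels are given as CPM, read counts brought to a common library size with TMM, a method that evens out differences in library composition. Its factors ran from 0.895 to 1.394 in the inhibitor libraries and from 0.717 to 0.778 in the untreated ones. Genes of contractile skeletal muscle, 9 in all, summed to 31248 and 63753 CPM with gefitinib and to 141900 and 31501 CPM with afatinib, against 232577 and 197300 CPM in untreated skin, and 6 basal keratinocyte genes to 2285 to 3863 CPM with the inhibitors, against 779 and 1311 CPM in untreated skin. Afatinib replicate 1 thus held more muscle RNA than the other inhibitor libraries. In bulk skin, fewer cells of a type and less RNA per cell cannot be told apart.

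Of the 86 members, 28 had 0 counts in all 6 libraries and 58 had at least 1 count. The filter on low counts left 40 for the test (edgeR's quasi-likelihood test, adjusted by Benjamini-Hochberg over 16398 genes, threshold 0.05). With gefitinib 17 of these 40 passed higher and 1 lower than in untreated skin, where 12.3% of all genes tested passed higher, 5.45% lower and 17.7% in either direction. With afatinib 14 passed higher and 0 lower, against 3.60% and 0.372% of all genes, or 3.98% in either direction. For the mean of both inhibitors 19 passed higher and 1 lower, against 11.0% and 4.93%, or 16.0% in either direction. These 3 comparisons share the untreated libraries.

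The median log2 fold change of the 40 was 0.85 with gefitinib and 1.14 with afatinib, against 0.04 and 0.09 over all genes tested. In 22 of the 40 all 4 inhibitor libraries lay above both untreated ones, as in 27.2% of all genes, and in 2 they lay below, as in 18.8%. Part of the tested set entered through the inhibitor libraries, so these counts and medians are descriptions. In 22 members both untreated libraries exceeded the filter's minimum of 0.501 CPM, and of these 6 passed higher and 1 lower with gefitinib, and 5 higher with afatinib. The other 18 could meet the filter only with inhibitor libraries. In 9 of them 1 untreated library exceeded the minimum, and 5 of these passed higher with gefitinib and 4 with afatinib. They were Serpinb3a, Serpinb10, Serpinb11, Serpinb7, Serpina11, Serpina12, Stfa3, Slpi and Spink8. In the remaining 9 no untreated library exceeded it, and 6 of these passed higher with gefitinib and 5 with afatinib. They were Serpinb13, Serpinb12, Serpinb3, Serpina1, Serpinf2, Stfa2l1, Csta, Wfdc18 and Wfdc5.

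The calls rest on both untreated libraries. Without untreated replicate 1 only 1, 0 and 2 members passed for gefitinib, afatinib and the mean of both, and only 10, 1 and 20 of all genes. Without untreated replicate 2 no member passed, and 0, 0 and 3 of all genes did. Leaving out gefitinib replicate 1 left 12 of the 18 gefitinib calls, with Cstb, Serpina11, Serpinb10, Serpinb1a, Serpinb12 and Wfdc21 lost. Without gefitinib replicate 2 there were 10, with Serpinb8 and Slpi lost as well. For afatinib 6 calls were left without gefitinib replicate 1, without gefitinib replicate 2, and in a fit of the afatinib and untreated libraries alone: the stefin A genes Stfa3, Stfa2, Stfa2l1 and Csta, with Serpinb3a and Wfdc18. Without afatinib replicate 2 these 6 and Serpinb5 passed.

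**Figure D1:**
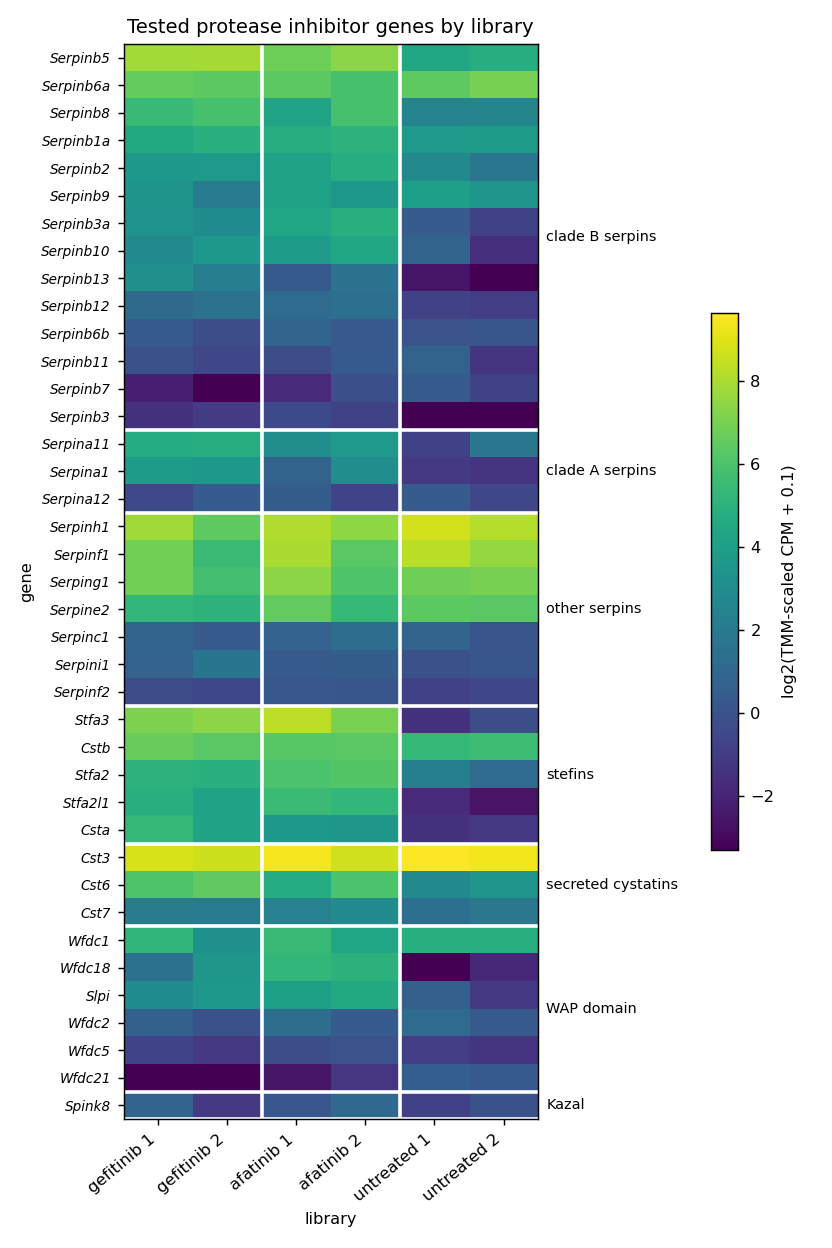
Level of 39 of the 40 tested protease inhibitor genes (rows, grouped by family) in each of the 6 libraries (columns), as log2 of TMM-scaled CPM plus 0.1. Stefins except Cstb, and several clade B serpins, run from dark in the untreated columns to bright in the inhibitor columns, while Cst3, Serpinh1 and Serpinf1 are bright throughout.

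All 5 tested stefins rose with gefitinib and 4 of them with afatinib, against 12.3% and 3.60% of all genes tested. Csta and the 3 Stfa genes are the rat stefin A genes, whose products block cathepsins in the cytosol of keratinocytes and, in mouse, of neutrophils. Cstb encodes stefin B, which is made in most cells.

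The 4 tested stefin A genes lie side by side on chromosome 11, from 67308943 to 67566972 in the coordinates of the files, whose build was not given in the sources used here. Their promoters are shown because these genes moved together. The 250 bases before each start are from RefSeq on build GRCr8, at chr11:78125563-78125812 (plus strand) for Csta, chr11:78049536-78049785 (plus strand) for Stfa2, chr11:77950203-77950452 (minus strand) for Stfa2l1 and chr11:77858820-77859069 (plus strand) for Stfa3. Capitals mark the 2 runs of at least 10 bases that all 4 share in this order.
Csta: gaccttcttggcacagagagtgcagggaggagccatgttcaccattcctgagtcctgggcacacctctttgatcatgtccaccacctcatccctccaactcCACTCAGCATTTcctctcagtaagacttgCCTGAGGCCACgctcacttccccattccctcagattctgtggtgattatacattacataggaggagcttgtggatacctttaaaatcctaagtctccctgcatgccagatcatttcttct
Stfa2: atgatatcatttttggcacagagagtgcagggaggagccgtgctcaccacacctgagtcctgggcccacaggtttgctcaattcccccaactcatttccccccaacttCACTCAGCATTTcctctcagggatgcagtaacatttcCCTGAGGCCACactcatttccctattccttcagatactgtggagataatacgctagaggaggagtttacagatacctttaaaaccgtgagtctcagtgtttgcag
Stfa2l1: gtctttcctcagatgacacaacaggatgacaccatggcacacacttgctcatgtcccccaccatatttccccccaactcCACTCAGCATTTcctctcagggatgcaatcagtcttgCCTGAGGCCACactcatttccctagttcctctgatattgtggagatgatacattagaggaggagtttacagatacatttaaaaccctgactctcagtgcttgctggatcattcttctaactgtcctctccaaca
Stfa3: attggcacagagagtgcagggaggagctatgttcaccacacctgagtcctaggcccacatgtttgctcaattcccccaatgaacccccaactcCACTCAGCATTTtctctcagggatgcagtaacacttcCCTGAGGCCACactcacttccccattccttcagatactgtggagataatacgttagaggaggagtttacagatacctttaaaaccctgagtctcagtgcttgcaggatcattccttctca
The shared runs are CACTCAGCATTT, of 12 bases, and CCTGAGGCCAC, of 11. Any pair of the 4 promoters matched at 72.8% to 88.0% of the 250 bases, the highest being Stfa2 with Stfa3. The genes themselves are similar in sequence too, so reads could be split among them and the value of any 1 of them is uncertain.

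Stfa3 (ENSRNOG00000033933, chromosome 11, 67308943 to 67314172) had 135 and 169 CPM with gefitinib and 326 and 132 CPM with afatinib, against 0.277 and 0.756 CPM in untreated skin. All inhibitor libraries stood far above both untreated libraries, which held 4 and 13 counts. The log2 fold change was 8.15 ± 0.70 with gefitinib (SE; adjusted p = 0.00628) and 8.74 ± 0.71 with afatinib (adjusted p = 0.00519).

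Stfa2l1 (ENSRNOG00000033929, 67395889 to 67400201) had 27.9 and 17.3 CPM with gefitinib and 45.9 and 38.1 CPM with afatinib, against 0.207 and 0.0582 CPM in untreated skin. Its groups did not overlap, and the 2 untreated libraries together held 4 counts. It rose by a log2 fold change of 7.41 ± 0.54 with gefitinib (adjusted p = 0.00608) and of 8.30 ± 0.55 with afatinib (adjusted p = 0.00354).

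Stfa2 (ENSRNOG00000050110, 67465236 to 67470941) had 33.2 and 29.4 CPM with gefitinib and 61.9 and 70.8 CPM with afatinib, against 4.70 and 2.21 CPM in untreated skin. It was thus present in untreated skin, and both afatinib libraries lay above both gefitinib libraries. The change was 3.19 ± 0.38 with gefitinib (adjusted p = 0.00971) and 4.27 ± 0.39 with afatinib (adjusted p = 0.00767) on the log2 scale.

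Csta (ENSRNOG00000023953, 67555658 to 67566972) had 39.5 and 17.4 CPM with gefitinib and 11.8 and 11.4 CPM with afatinib, against 0.277 and 0.349 CPM in untreated skin. Here the gefitinib libraries were the higher of the inhibitor libraries. It rose by 6.47 ± 0.56 with gefitinib (adjusted p = 0.00628) and by 5.17 ± 0.55 with afatinib (adjusted p = 0.0139) on the log2 scale. The gefitinib value was 5.71 without gefitinib replicate 1.

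Single libraries moved several of these values, though none turned a direction. Without untreated replicate 1 the log2 fold changes of Stfa2l1 were 8.46 for gefitinib and 9.35 for afatinib, and those of Stfa2 were 3.82 and 4.90. Without untreated replicate 2 those of Stfa2l1 were 6.73 and 7.62 and those of Stfa3 9.07 and 9.66. Stfa3 stood at 7.94 for afatinib without afatinib replicate 1.

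Cstb (ENSRNOG00000001201, chromosome 20, 10966331 to 10968432) had 97.3 and 81.1 CPM with gefitinib and 76.0 and 79.1 CPM with afatinib, against 40 and 49.2 CPM in untreated skin. It did not overlap between groups, but its change was small next to those of the stefin A genes: 1.00 ± 0.25 with gefitinib (adjusted p = 0.0348) and 0.80 ± 0.24 with afatinib (adjusted p = 0.115) on the log2 scale. Stfa3l1, the remaining stefin, had 0 counts in every library.

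Markers of neutrophils and of stressed keratinocytes moved in the same libraries. The 8 neutrophil markers summed to 9.10 and 9.02 CPM with gefitinib and to 12.1 and 25.3 CPM with afatinib, against 0.968 and 0.873 CPM in untreated skin. Of these 4 could be tested and 2, Csf3r and Mmp8, rose with each inhibitor, while Elane and Ltf stood at 0 in both gefitinib libraries. The 4 stressed keratinocyte markers in the files, Krt16, Krt17, Sprr1a and Sprr1b, all rose with each inhibitor and summed to 759 and 574 CPM with gefitinib and to 490 and 698 CPM with afatinib, against 44.7 and 93.8 CPM in untreated skin. They were not the only markers that rose. The 8 hair shaft and root sheath markers summed to 4230 and 3109 CPM with gefitinib and to 1025 and 3506 CPM with afatinib. In untreated skin they summed to 62.3 and 226 CPM, and 8 rose with gefitinib and 6 with afatinib. Of the 6 basal keratinocyte markers 2 rose with gefitinib and 0 with afatinib. The 4 suprabasal keratinocyte markers in the files summed to 265 and 295 CPM with gefitinib and to 204 and 366 CPM with afatinib. Untreated skin, at 278 and 146 CPM, overlapped both, while 2 rose with gefitinib and 1 with afatinib. The 6 mast cell markers summed to 63.7 and 79.1 CPM with gefitinib and to 92.1 and 57.1 CPM with afatinib. Untreated skin had 34.9 and 46.8 CPM, and 1 of the 6 rose with each inhibitor. The part of these cell types in the stefin values was not tested.

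**Figure D2:**
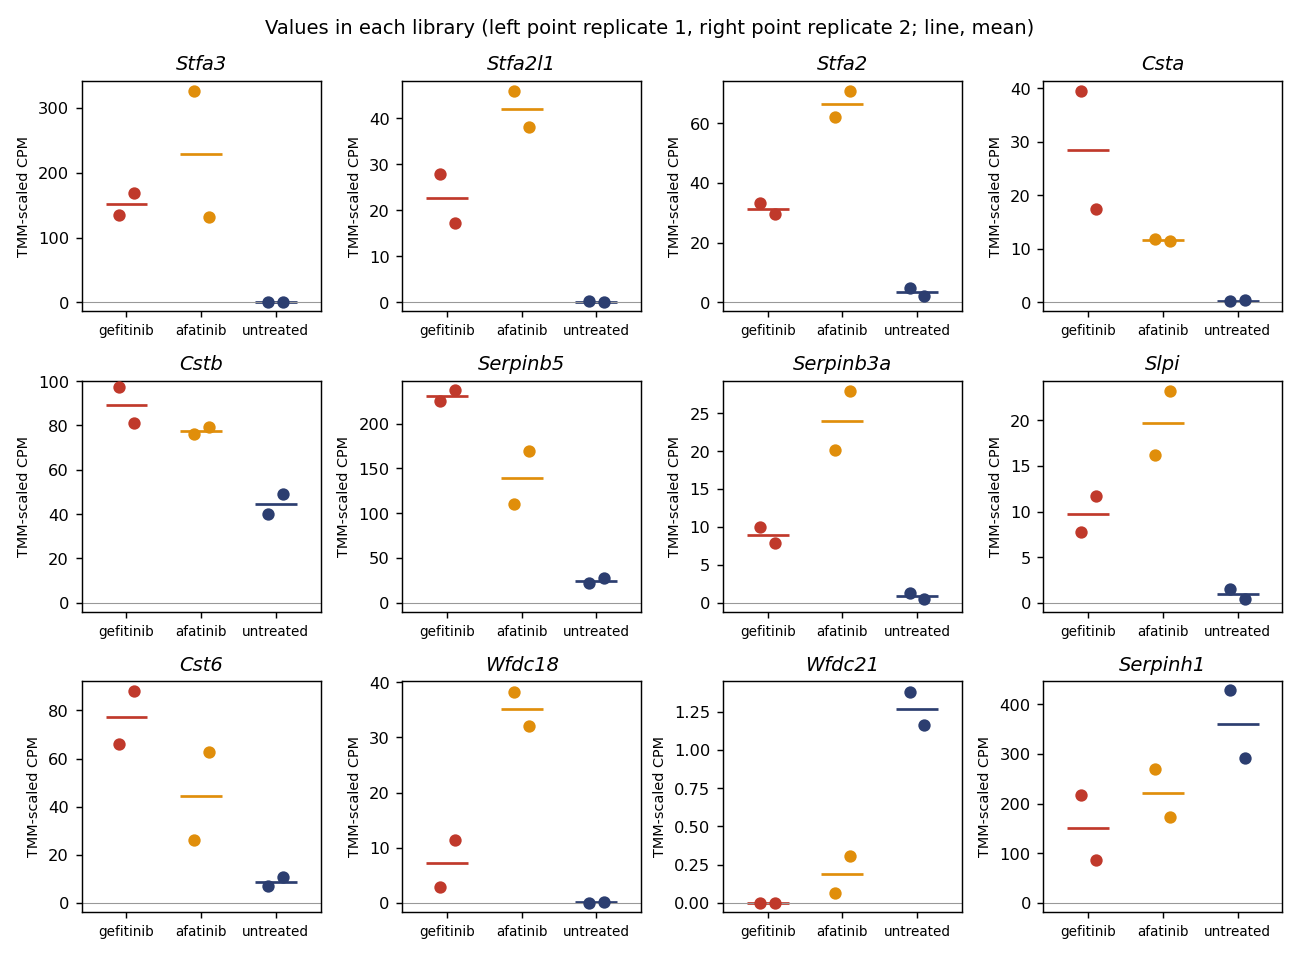
TMM-scaled CPM of 12 members in each library (points; 2 per group, replicate 1 left of replicate 2) with the group mean (line). Each panel has its own axis from 0. The first 10 genes have all 4 inhibitor libraries above both untreated ones, Wfdc21 and Serpinh1 have them below.

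Among the clade B serpins, 7 of 14 tested genes rose with gefitinib and 6 with afatinib, against 12.3% and 3.60% of all genes tested, and 0 fell. Most of the clade B genes that rose belong to the chromosome 13 cluster, and several are keratinocyte genes. The family's most abundant members in untreated skin did not all take part.

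Serpinb5 (ENSRNOG00000002640, chromosome 13, 26903052 to 26923250), or maspin, an epithelial serpin that does not inhibit proteases, had 225 and 237 CPM with gefitinib and 110 and 169 CPM with afatinib, against 21.5 and 27.0 CPM in untreated skin. Every inhibitor library stood well above both untreated ones. Its log2 fold change was 3.25 ± 0.34 with gefitinib (adjusted p = 0.00962) and 2.52 ± 0.33 with afatinib (adjusted p = 0.0257).

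Serpinb8 (ENSRNOG00000002396, 27889345 to 27914006), an inhibitor of the proprotein convertase furin, had 43.4 and 58.5 CPM with gefitinib and 18.6 and 58.4 CPM with afatinib, against 5.46 and 5.88 CPM in untreated skin. Afatinib replicate 1 was the lowest inhibitor library, yet above both untreated ones. The gene rose by 3.17 ± 0.54 with gefitinib (adjusted p = 0.015) and by 2.77 ± 0.53 with afatinib (adjusted p = 0.0412) on the log2 scale. Without afatinib replicate 2 the afatinib value was 1.65 (adjusted p = 0.0572), and without afatinib replicate 1 it was 3.36.

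Serpinb3a (ENSRNOG00000002578, 27153925 to 27158628), a relative of the human squamous cell carcinoma antigens, had 9.96 and 7.88 CPM with gefitinib and 20.1 and 27.9 CPM with afatinib, against 1.24 and 0.465 CPM in untreated skin. Both afatinib libraries lay above both gefitinib libraries. The log2 fold changes were 3.40 ± 0.50 for gefitinib (adjusted p = 0.0126) and 4.83 ± 0.52 for afatinib (adjusted p = 0.0139), and without untreated replicate 1 they were 4.24 and 5.67. Its neighbour Serpinb3 had 7 and 9 counts with gefitinib and 10 and 12 with afatinib, against 0 and 0 in untreated skin. Set against a floor of 3 counts per library, Serpinb3 was at least 2.33-fold higher over both inhibitors (adjusted p = 0.0407 for their mean). It missed the threshold for gefitinib (adjusted p = 0.0531) and afatinib (adjusted p = 0.0719). Serpinb3 and Serpinb3a are close copies, so the split of reads between them is uncertain.

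Serpinb10 (ENSRNOG00000002417, 27465930 to 27483799), known in human as bomapin of blood-forming cells, had 7.29 and 11.7 CPM with gefitinib and 13.6 and 21.9 CPM with afatinib, against 1.66 and 0.233 CPM in untreated skin. The 2 untreated libraries, at 24 and 4 counts, stood further apart in ratio than any 2 inhibitor libraries. It rose by 3.36 ± 0.76 with gefitinib (adjusted p = 0.029) and 4.26 ± 0.78 with afatinib (adjusted p = 0.0375) on the log2 scale. These values were 5.32 and 6.21 without untreated replicate 1 and 2.52 and 3.41 without untreated replicate 2.

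Serpinb2 (ENSRNOG00000002460, 27449934 to 27463010), plasminogen activator inhibitor 2, lies 2.9 kb from Serpinb10. It had 12 and 12.5 CPM with gefitinib and 17.5 and 27.1 CPM with afatinib, against 6.98 and 3.26 CPM in untreated skin. It passed for afatinib (log2 fold change 2.13 ± 0.43, adjusted p = 0.0454) and for the mean of both (1.70 ± 0.39, adjusted p = 0.031), and missed the threshold for gefitinib (1.26 ± 0.42, adjusted p = 0.0776). Without untreated replicate 1 the afatinib value was 2.77 and that of the mean 2.34.

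Serpinb13 (ENSRNOG00000028194, 27032048 to 27062620), which in human keratinocytes inhibits cathepsins L and K, had 230 and 103 counts with gefitinib and 18 and 76 with afatinib, against 1 and 0 in untreated skin. The ratio of summed scaled counts was 218 for gefitinib (95% exact interval 38.8 to 8632, adjusted p = 0.0116) and 72.0 for afatinib (12.6 to 2873, adjusted p = 0.0392). The fitted log2 values, which depend on the prior count, were 7.48 and 5.77, and 10.18 and 8.47 without untreated replicate 1, 6.50 and 4.79 without untreated replicate 2. They were 6.83 for gefitinib without gefitinib replicate 1 and 4.89 for afatinib without afatinib replicate 2.

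Serpinb12 (ENSRNOG00000002602, 26970660 to 26998357), an inhibitor of trypsin-like proteases, had 2.12 and 2.80 CPM with gefitinib and 2.21 and 2.54 CPM with afatinib, against 0.484 and 0.407 CPM in untreated skin. The inhibitor groups were nearly level with each other. Serpinb12 passed for gefitinib (2.45 ± 0.54, adjusted p = 0.0268) and for the mean of both (2.43 ± 0.50, adjusted p = 0.0234). Afatinib alone gave 2.41 ± 0.54 (adjusted p = 0.0555), and the values of the 2 drugs differ by far less than their errors.

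The chromosome 17 cluster showed fewer changes. Serpinb1a (ENSRNOG00000016581, 32904119 to 32911495), which inhibits neutrophil elastase, cathepsin G and proteinase 3, had 22.9 and 29.3 CPM with gefitinib and 26.8 and 33.1 CPM with afatinib, against 13 and 13.1 CPM in untreated skin. It passed for gefitinib (log2 fold change 1.00 ± 0.26, adjusted p = 0.0403) and missed narrowly for afatinib (1.20 ± 0.26, adjusted p = 0.0519). Serpinb6a (ENSRNOG00000017962, 32190801 to 32209590), a cathepsin G inhibitor, had 93.4 and 81.5 CPM with gefitinib and 83.2 and 58.0 CPM with afatinib, against 86.2 and 127 CPM in untreated skin. The gefitinib libraries overlapped the untreated ones, while both afatinib libraries lay below them. The log2 fold changes of Serpinb6a were −0.28 for gefitinib (95% interval −1.0 to 0.43) and −0.59 for afatinib (−1.31 to 0.13), and scaled by library size only 0.40 and −0.05. Neither drug passed. Serpinb9, the granzyme B inhibitor of cytotoxic cells, had 10.2 and 3.81 CPM with gefitinib and 17.3 and 11.7 CPM with afatinib, against 16.0 and 10.6 CPM in untreated skin, and did not pass.

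By position, 10 clade B members lie within 1011 kb of chromosome 13 (26903052 to 27914006), and all 10 could be tested. Of these 6 rose with gefitinib, 6 with afatinib and 8 for the mean of both; Serpinb11 and Serpinb7 were the exceptions. Serpinb7, whose human counterpart is lost in a hereditary keratoderma, had 3 and 0 counts with gefitinib and 3 and 21 with afatinib, against 17 and 8 in untreated skin (adjusted p = 0.0871 for gefitinib). Of the 6 members within 721 kb of chromosome 17 (32190801 to 32911495), 4 could be tested, and Serpinb1a alone passed, for gefitinib and for the mean of both. In the stefin A cluster, 4 of the 4 tested genes rose with gefitinib and 4 with afatinib. Over all genes tested, 12.3% passed higher for gefitinib, 3.60% for afatinib and 11.0% for the mean of both. On chromosome 13, Serpinb3a, Serpinb10, Serpinb11, Serpinb7, Serpinb13, Serpinb12 and Serpinb3 could meet the filter only with inhibitor libraries. The same held for Stfa3, Stfa2l1 and Csta, so these counts by position are descriptions.

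**Figure D3:**
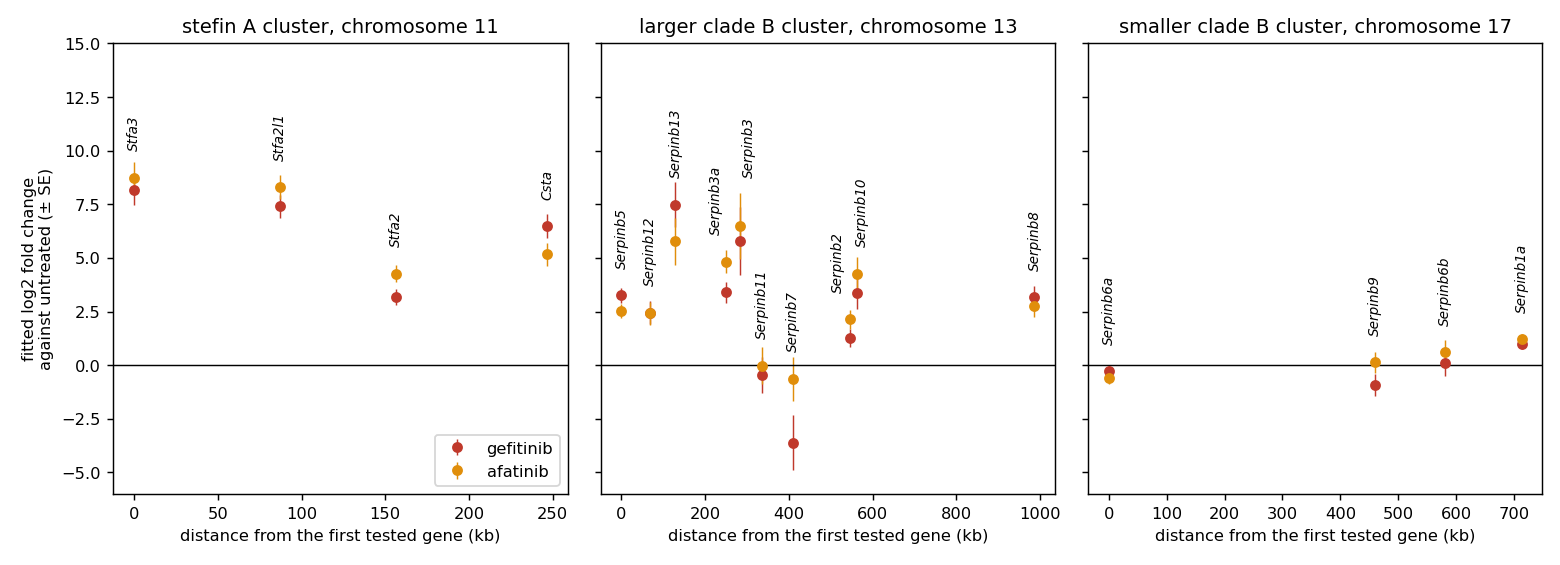
Fitted log2 fold change against untreated skin (± SE) of the tested genes in 3 clusters, plotted by distance from the first tested gene of the cluster in kb. The 4 stefin A genes lie between 3.19 and 8.74 with both inhibitors, Serpinb11 and Serpinb7 sit at or below 0 in the middle of the chromosome 13 cluster (scaled by library size only, Serpinb11 is at 0.26 and 0.68 and Serpinb7 with afatinib at 0.13), and the chromosome 17 genes lie between −0.92 and 1.20. The plotted value of Serpinb3, with 0 counts in untreated skin, depends on the prior count.

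Of 3 tested clade A serpins, 2 rose with gefitinib and 1 with afatinib, against 12.3% and 3.60% of all genes tested. Serpina1 (ENSRNOG00000032669, chromosome 6, 127610243 to 127632265), the gene of alpha-1-antitrypsin, the liver-made inhibitor of neutrophil elastase, had 13.6 and 11.9 CPM with gefitinib and 1.62 and 8.06 CPM with afatinib, against 0.346 and 0.291 CPM in untreated skin. The groups did not overlap, and afatinib replicate 1 lay nearest to untreated skin. It rose by 5.30 ± 0.85 with gefitinib (adjusted p = 0.0137) and by 3.92 ± 0.83 with afatinib (adjusted p = 0.0492) on the log2 scale. The afatinib value was 2.28 without afatinib replicate 2 (adjusted p = 0.0948) and 4.64 without afatinib replicate 1, and with size factors of DESeq2 in the same test its adjusted p was 0.0524. The 4 hepatocyte markers in the files summed to 0.588 and 0.919 CPM with gefitinib and to 0.065 and 5.48 CPM with afatinib, against 0.761 and 0.698 CPM in untreated skin, with Fgb at 0 in every library.

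Serpina11 (ENSRNOG00000011141, 127647184 to 127656603), 14.9 kb from Serpina1, had 25.9 and 27.0 CPM with gefitinib and 8.25 and 12.9 CPM with afatinib, against 0.484 and 3.32 CPM in untreated skin. All inhibitor libraries lay above both untreated libraries, which held 7 and 57 counts. It passed for gefitinib (log2 fold change 3.77 ± 0.73, adjusted p = 0.0193) and missed for afatinib (2.45 ± 0.71, adjusted p = 0.0995). The gefitinib value was 2.99 without untreated replicate 1 and 5.76 without untreated replicate 2. Serpina12, or vaspin, an adipocyte serpin, had 0.627 and 1.27 CPM with gefitinib and 1.30 and 0.501 CPM with afatinib, against 1.24 and 0.582 CPM in untreated skin, with overlapping groups.

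None of the 8 tested serpins of the other clades passed in the edgeR fit of all 6 libraries in any comparison with untreated skin. Of all genes tested, 17.7%, 3.98% and 16.0% passed for gefitinib, afatinib and the mean of both. With only 8 genes, 0 calls do not set this family apart. Serpinh1, Serpinf1 and Serpine2 passed lower under some alternatives. Scaled by library size only, they did not pass, at −0.50, −0.87 and −0.52 for gefitinib (adjusted p = 0.462, 0.268 and 0.292). Serpine2 with afatinib was then at 0.20. In the main fit 4 had an unadjusted p under 0.05 for gefitinib and 0 for afatinib. These 4 were Serpinh1, Serpinf1 and Serpine2, all lower, and Serpini1, higher (log2 fold change 1.38, adjusted p = 0.126). The 8 are mostly serpins of connective tissue, vessels and plasma. By the authors' FPKM, which divide by gene length, they include Serpinh1 and Serpinf1, which stand next after Cst3 in untreated skin.

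Serpinh1 (ENSRNOG00000016831, chromosome 1, 164301010 to 164308317), the collagen chaperone HSP47, had 217 and 86.1 CPM with gefitinib and 269 and 173 CPM with afatinib, against 429 and 291 CPM in untreated skin. All inhibitor libraries lay below both untreated ones. The log2 fold change was −1.25 ± 0.50 for gefitinib (adjusted p = 0.118, against 0.0375 by DESeq2 and 0.0451 with no filter on low counts) and −0.70 ± 0.50 for afatinib (adjusted p = 0.443). Serpinf1 (ENSRNOG00000003172, chromosome 10, 62241756 to 62254287), which encodes the antiangiogenic factor PEDF, had 119 and 46.2 CPM with gefitinib and 250 and 79.4 CPM with afatinib, against 314 and 191 CPM in untreated skin. Afatinib replicate 1 fell inside the untreated range. Its log2 fold change for gefitinib was −1.61 ± 0.65 (adjusted p = 0.119, against 0.0325 by DESeq2, 0.0154 with no filter and 0.0303 with the replicate number as a block). It also passed for gefitinib in the fit of the gefitinib and untreated libraries alone (adjusted p = 0.0487) and without either afatinib library (0.0455 and 0.036). For the mean of both inhibitors it passed with no filter (0.0453), with the block (0.0429) and without afatinib replicate 1 (0.0305).

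Serpine2, protease nexin-1, had 37.7 and 33.1 CPM with gefitinib and 93.2 and 40.9 CPM with afatinib, against 83.1 and 80.6 CPM in untreated skin. The gefitinib libraries lay below the untreated ones while the afatinib libraries lay on either side. Its log2 fold change for gefitinib was −1.21 ± 0.38 (adjusted p = 0.0679, against 0.0228 by DESeq2 and 0.014 with no filter). It passed for gefitinib in the fit of the gefitinib and untreated libraries alone (adjusted p = 0.00623) and without either afatinib library (0.00573 and 0.00508), and without afatinib replicate 1 also for afatinib (0.0283) and the mean (0.00503). The 7 fibroblast markers summed to 6303 and 1283 CPM with gefitinib and to 9113 and 3296 CPM with afatinib, against 21538 and 10338 CPM in untreated skin, and their part in these values was not tested.

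Serping1 (ENSRNOG00000007457, chromosome 3, 72161189 to 72171078), the complement C1 inhibitor, had 119 and 54.6 CPM with gefitinib and 164 and 66.2 CPM with afatinib, against 115 and 128 CPM in untreated skin. Its groups overlapped.

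**Figure D4:**
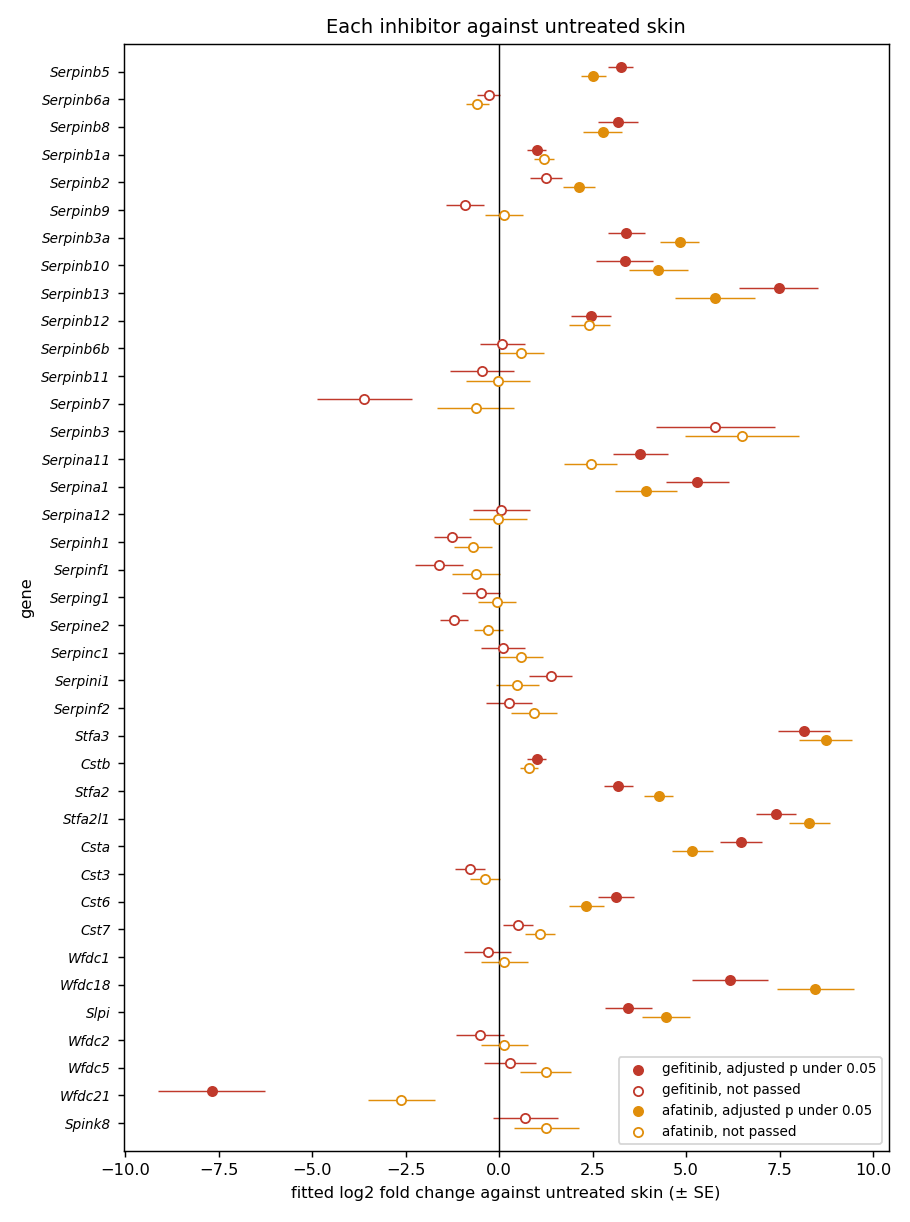
Fitted log2 fold change (± SE) of 39 of the 40 tested members for gefitinib (upper point of each row) and afatinib (lower point), each against untreated skin; filled points passed an adjusted p of 0.05 and open points did not. The stefins and most clade B serpins sit right of 0 and the serpins of other clades cluster around it. The plotted values of Serpinb3 and of Wfdc21 with gefitinib rest on a group with 0 counts and depend on the prior count.

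Of the secreted cystatins, 1 of 3 tested genes rose with each inhibitor, against 12.3% of all genes tested for gefitinib and 3.60% for afatinib. Cst6 (ENSRNOG00000020455, chromosome 1, 220727292 to 220729000) encodes cystatin M/E, an inhibitor of legumain and cathepsins L and V that takes part in cornification. It had 66.2 and 88.1 CPM with gefitinib and 26.2 and 62.8 CPM with afatinib, against 6.92 and 10.8 CPM in untreated skin. The inhibitor libraries stood clear of the untreated ones, with afatinib replicate 1 again the lowest of them. It rose by 3.12 ± 0.47 with gefitinib (adjusted p = 0.0127) and by 2.33 ± 0.46 with afatinib (adjusted p = 0.0428) on the log2 scale. The afatinib value was 1.5 without afatinib replicate 2 (adjusted p = 0.10).

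Cst3 (ENSRNOG00000005195, chromosome 3, 143219686 to 143223615), cystatin C, the general extracellular cathepsin inhibitor, had 454 and 397 CPM with gefitinib and 709 and 415 CPM with afatinib, against 794 and 663 CPM in untreated skin. Its log2 fold change was −0.78 for gefitinib (95% interval −1.72 to 0.16, adjusted p = 0.198) and −0.37 for afatinib (−1.31 to 0.56, adjusted p = 0.613). Scaled by library size only, the values were −0.08 for gefitinib and 0.16 for afatinib. Its neighbours Cst11, Cst12, Cst8, Cst13 and Cst9l had 0 counts in every library. Cst7, the leukocyte cystatin F, had 4.39 and 4.07 CPM with gefitinib and 5.33 and 7.40 CPM with afatinib, against 2.56 and 3.43 CPM in untreated skin. Its inhibitor libraries all lay above the untreated ones, but it did not pass (adjusted p = 0.396 for gefitinib and 0.175 for afatinib).

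Of the 6 tested WAP domain genes, 2 rose with each inhibitor and 1 fell with gefitinib. Over all genes tested 12.3% rose with gefitinib and 3.60% with afatinib, and 5.45% fell with gefitinib. Slpi (ENSRNOG00000046699, chromosome 3, 160799981 to 160802433), the secretory leukocyte protease inhibitor that blocks neutrophil elastase at epithelial surfaces, had 7.72 and 11.7 CPM with gefitinib and 16.2 and 23.2 CPM with afatinib, against 1.45 and 0.349 CPM in untreated skin. All inhibitor libraries lay above both untreated ones, and the afatinib libraries above the gefitinib libraries. It rose by 3.45 ± 0.63 with gefitinib (adjusted p = 0.0168) and by 4.47 ± 0.64 with afatinib (adjusted p = 0.0308) on the log2 scale. Those values were 4.77 and 5.79 without untreated replicate 1, and 2.74 and 3.76 without untreated replicate 2.

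Wfdc18 and Wfdc21 lie 36.4 kb apart on chromosome 10 and moved in opposite directions. Wfdc18, whose mouse counterpart is an extracellular proteinase inhibitor first known from mammary tissue, spans 71008709 to 71010863 (ENSRNOG00000037097), and Wfdc21 spans 71047310 to 71053191 (ENSRNOG00000029668). Their promoters are set side by side for that contrast: the 250 bases before each start from RefSeq on GRCr8, at chr10:69086069-69086318 (plus strand) for Wfdc18 and chr10:69125086-69125335 (plus strand) for Wfdc21. Capitals mark the motif TATAAA, found in Wfdc18.
Wfdc18: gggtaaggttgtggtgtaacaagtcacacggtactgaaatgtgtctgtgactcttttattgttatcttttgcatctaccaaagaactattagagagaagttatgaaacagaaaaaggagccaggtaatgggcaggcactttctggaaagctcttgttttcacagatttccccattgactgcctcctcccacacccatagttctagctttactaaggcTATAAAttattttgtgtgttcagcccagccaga
Wfdc21: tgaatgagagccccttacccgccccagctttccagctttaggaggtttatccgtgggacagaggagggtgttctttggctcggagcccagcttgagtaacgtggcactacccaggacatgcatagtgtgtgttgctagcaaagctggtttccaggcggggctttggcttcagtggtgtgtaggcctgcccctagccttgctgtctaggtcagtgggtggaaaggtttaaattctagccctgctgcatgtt
The pair matched at 57.2% of the 250 bases, within the 55.6% to 59.2% at which either matched a stefin A promoter.

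Wfdc18 had 73 and 263 counts with gefitinib and 590 and 832 with afatinib, against 0 and 3 in untreated skin. In CPM these were 2.86 and 11.5 with gefitinib and 38.3 and 32.1 with afatinib, against 0 and 0.175. The ratio of summed scaled counts was 73.3 for gefitinib (95% exact interval 24.9 to 357, adjusted p = 0.015) and 363 for afatinib (124 to 1762, adjusted p = 0.0234). Fitted log2 values, which depend on the prior count, were 6.17 for gefitinib and 8.46 for afatinib. Without untreated replicate 2 they were 10.23 and 12.52, without untreated replicate 1 5.31 and 7.60, and for gefitinib 6.79 without gefitinib replicate 1 and 4.77 without gefitinib replicate 2.

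Wfdc21 had 0 and 0 counts with gefitinib and 1 and 8 with afatinib, against 20 and 20 in untreated skin. Set against 3 counts per library it was at least 10.2-fold lower with gefitinib (adjusted p = 0.021). The afatinib libraries lay between, with a log2 fold change of −2.62 ± 0.89 that missed the threshold (adjusted p = 0.16).

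Wfdc1 (ENSRNOG00000015904, chromosome 19, 52313795 to 52332697), the stromal protein ps20, had 37.0 and 8.84 CPM with gefitinib and 42.4 and 19.9 CPM with afatinib, against 29.5 and 27.3 CPM in untreated skin, and its groups overlapped. Wfdc2 and Wfdc5 stood between 0.29 and 2.47 CPM in every library and did not pass. On chromosome 3, 15 WAP domain members lie within 644 kb, of which only Wfdc5, Slpi and Wfdc2 could be tested and Slpi alone passed.

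Of 13 Kazal members only Spink8 was tested. It had 1.76 and 0.350 CPM with gefitinib and 1.04 and 2.08 CPM with afatinib, against 0.484 and 0.815 CPM in untreated skin. The gefitinib libraries overlapped the untreated ones and both afatinib libraries lay above them, but Spink8 did not pass with either drug. Spink5 encodes LEKTI, the inhibitor of kallikreins 5 and 7 that is lost in Netherton syndrome in human. It had 23 and 3 counts with gefitinib and 7 and 6 with afatinib, against 1 and 1 in untreated skin, too few for the filter. In a fit with no filter its gefitinib log2 fold change was 2.94 ± 1.46 (adjusted p = 0.171), so no difference was detectable at this depth. Serpina9 had 21 and 8 counts with gefitinib and 3 and 3 with afatinib, against 0 and 0 in untreated skin, and passed for gefitinib in the fit with no filter (adjusted p = 0.0314). The other untested members with any count had between 1 and 43 over all libraries, among them Wfdc6a, with 0 and 1 counts with gefitinib and 3 and 0 with afatinib, against 15 and 1 in untreated skin.

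Per length, the make-up of the inhibitor families differed between rash and untreated skin. Stefins held 35.5% and 38.1% of the members' summed FPKM with gefitinib and 39.5% and 38.5% with afatinib, against 4.40% and 5.76% in untreated skin. Secreted cystatins, for the most part Cst3, held 34.7% and 36.9% with gefitinib and 33.4% and 32.4% with afatinib, against 58.4% and 58.2%. The serpins of other clades held 14.3% and 7.29% with gefitinib and 15.2% and 10.5% with afatinib, against 29.3% and 25.3%. Inhibitor and untreated libraries did not overlap in any of these 3 shares. Clade B serpins held 11.5% and 13.1% with gefitinib and 6.38% and 11.3% with afatinib, against 5.80% and 8.53%, and here the afatinib range included an untreated library.

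By FPKM Cst3 ranked first among the members in every library, at 564 and 504 with gefitinib and 883 and 500 with afatinib, against 1020 and 857 in untreated skin. Stfa3 ranked next in all 4 inhibitor libraries, at 264 and 339 FPKM with gefitinib and 641 and 252 with afatinib, while it had 0.562 and 1.54 FPKM in untreated skin. In untreated skin Serpinh1 came after Cst3, at 207 and 141 FPKM, and then Serpinf1, at 204 and 125 FPKM. In sum the members took 0.247% and 0.174% of all counts with gefitinib and 0.223% and 0.240% with afatinib, against 0.143% and 0.130% in untreated skin. Their summed TMM-scaled CPM was 1915 and 1567 with gefitinib and 2488 and 1723 with afatinib, against 2000 and 1666 in untreated skin. On that scale the groups overlapped, so the higher share of counts depends on the scaling.

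**Figure D5:**
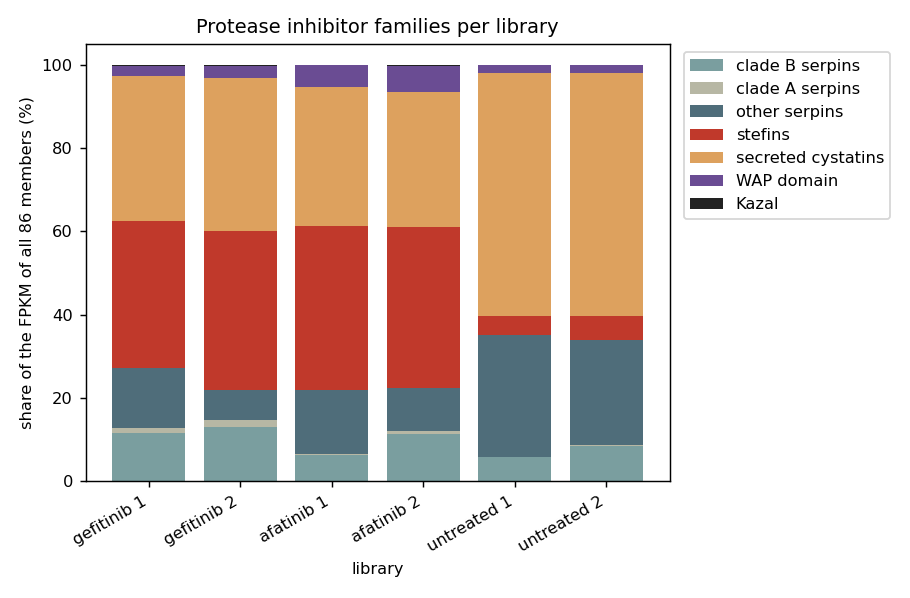
Share of the summed FPKM of all 86 members held by each family in each library (stacked bars, percent). Stefins take between 35.5% and 39.5% in the inhibitor libraries and 4.40% and 5.76% in the untreated ones, where secreted cystatins take 58.4% and 58.2%.

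Afatinib against gefitinib asks whether skin with the covalent drug's rash differs from skin with the reversible drug's. The 2 share a quinazoline core, and afatinib carries a reactive acrylamide-type group that gefitinib lacks. As the doses differ and the days may, the values are set side by side. No member of 40 passed by edgeR, and 0 of 16398 genes did (0.00%), while the unadjusted p was under 0.05 for 9 members and 946 genes. By DESeq2 0 members and 31 genes passed. In the fit with no filter 1 member passed, Wfdc18, at a log2 fold change of 2.28 (adjusted p = 0.0344), with 28 genes in all.

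The members with the smallest unadjusted p, all at an adjusted p of 0.787 by edgeR, were Wfdc18, Serpinb3a and Stfa2 on the side of afatinib and Csta, Serpinb13 and Serpinb5 on that of gefitinib. On the log2 scale the differences were 2.29 for Wfdc18 (95% interval 0.73 to 3.86), 1.43 for Serpinb3a (0.43 to 2.43) and 1.08 for Stfa2 (0.29 to 1.87). They were −1.30 for Csta (−2.26 to −0.34), −1.70 for Serpinb13 (−3.25 to −0.15) and −0.73 for Serpinb5 (−1.45 to −0.01). Stfa2 and Csta, neighbours in the stefin A cluster, thus had differences of opposite sign, neither past the adjusted threshold.

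Proteases, many of them of the kinds these families restrain, were followed as a list of 44 genes, of which 34 could be tested. The list also holds F3, tissue factor, which is a cofactor and not a protease, and which did not pass. With gefitinib 11 rose and 3 fell, or 32.4% of the 34 higher, against 12.3% of all genes tested. With afatinib 6 rose and 0 fell, or 17.6% higher, against 3.60% of all genes. The median log2 fold change was 0.20 with gefitinib and 0.65 with afatinib, against 0.04 and 0.09 over all genes tested. Part of this list also entered through the inhibitor libraries, so its counts, shares and medians are descriptions. Among the genes that rose with either drug, Klk6, Klk9, Klk13, Klk10 and F10 lay below the filter's minimum in both untreated libraries.

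Several kallikreins of the epidermis were among those that rose, though not all on the list were. Klk7, which cuts the junctions of corneocytes, had 12.8 and 10.3 CPM with gefitinib and 6.69 and 10.2 CPM with afatinib, against 0.830 and 0.989 CPM in untreated skin. It rose by 3.65 ± 0.43 with gefitinib (adjusted p = 0.00971) and by 3.20 ± 0.42 with afatinib (adjusted p = 0.0257) on the log2 scale. Klk8 rose by 3.16 ± 0.45 with gefitinib (adjusted p = 0.0117) and 3.44 ± 0.45 with afatinib (adjusted p = 0.0257). Klk6 had 235 and 124 counts with gefitinib and 118 and 180 with afatinib, against 0 and 3 in untreated skin. Its ratio of scaled counts was 78.3 for gefitinib (95% exact interval 26.6 to 382, adjusted p = 0.0106) and 76.1 for afatinib (25.8 to 371, adjusted p = 0.026). Klk9 and Klk13 also passed with each drug. Klk10 passed for afatinib (3.33 ± 0.66, adjusted p = 0.0425) and missed for gefitinib (1.67 ± 0.65, adjusted p = 0.111), a difference between the drugs that did not pass. Klk11 passed with neither gefitinib (0.22, adjusted p = 0.819) nor afatinib (1.19, adjusted p = 0.326). Klk5 had 5 and 0 counts with gefitinib and 1 and 4 with afatinib, against 2 and 1 in untreated skin, too few for the filter. Klk12 and Klk14 had too few counts as well, and Klk4 had 0 in every library.

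Among membrane proteases, St14, the matriptase of the epidermis, had 141 and 109 CPM with gefitinib and 40.3 and 132 CPM with afatinib, against 10.2 and 17.6 CPM in untreated skin. It passed for gefitinib (3.17 ± 0.59, adjusted p = 0.0176) and missed for afatinib (2.63 ± 0.58, adjusted p = 0.0526). Its partner Prss8, or prostasin, rose by 2.68 ± 0.53 with gefitinib (adjusted p = 0.0204). Plau, the urokinase that Serpinb2 blocks, fell with gefitinib, at 12.5 and 10 CPM, while it had 36.8 and 25.8 CPM with afatinib and 60.4 and 38.4 CPM in untreated skin (log2 fold change −2.13 ± 0.33, adjusted p = 0.0131). Plat, tissue plasminogen activator, fell by 0.96 with gefitinib on the log2 scale (adjusted p = 0.0489), a call lost when libraries were scaled by size only (−0.27, adjusted p = 0.596). Hpn, the membrane protease hepsin, fell by 1.76 with gefitinib (adjusted p = 0.0372), and that call was lost too (−1.07, adjusted p = 0.155).

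The cathepsins that stefins and cystatins block did not pass with either drug. Ctsb had 434 and 296 CPM with gefitinib and 296 and 366 CPM with afatinib, against 288 and 278 CPM in untreated skin. Ctsl had 136 and 162 CPM with gefitinib and 213 and 175 CPM with afatinib, against 244 and 233 CPM in untreated skin, below both untreated libraries in all 4 but not past the threshold (adjusted p = 0.131 for gefitinib). Scaled by library size only, its log2 fold changes were −0.00 for gefitinib and 0.29 for afatinib, so the lower level depends on the scaling. Neutrophil proteases had few counts. Prtn3, proteinase 3, had 8 and 12 counts with gefitinib and 5 and 22 with afatinib, against 0 and 0 in untreated skin. Set against 3 counts per library it was at least 2.63-fold higher over both inhibitors (adjusted p = 0.0458 for their mean, 0.0559 for gefitinib and 0.0816 for afatinib). Elane had 0 and 0 counts with gefitinib and 1 and 5 with afatinib, against 1 and 0 in untreated skin, and Ctsg 0 in every library.

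Of 28 other protease inhibitors outside these families, 26 were in the files and 17 could be tested. With gefitinib 3 rose and 1 fell, or 23.5% of the 17 in either direction, near the 17.7% of all genes tested. With afatinib 2 rose and 1 fell, or 17.6%, against 3.98% of all genes. Of those that rose with gefitinib, Fetub had 2 and 0 counts in untreated skin and met the filter only with inhibitor libraries. Spint1, an inhibitor of matriptase, had 109 and 88.1 CPM with gefitinib and 39.1 and 100 CPM with afatinib, against 6.92 and 8.49 CPM in untreated skin. It rose by 3.68 ± 0.48 with gefitinib (adjusted p = 0.0105) and by 3.18 ± 0.47 with afatinib (adjusted p = 0.0308) on the log2 scale. Spint2, its relative, rose by 2.55 ± 0.33 (adjusted p = 0.0105) with gefitinib and by 1.88 ± 0.32 (adjusted p = 0.035) with afatinib. Timp4, an inhibitor of metalloproteinases, fell by 1.02 with gefitinib (adjusted p = 0.0373) and fell by 1.54 with afatinib (adjusted p = 0.035) on the log2 scale. Scaled by library size only these were −0.33 (adjusted p = 0.598) and −0.92 (adjusted p = 0.19), neither past the threshold.

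The promoters of the tested members were searched on both strands for 5 motifs. RefSeq held a promoter for 69 of 86 members and 34 of the 40 tested, of which 16 rose for the mean of both drugs, 17 did not pass and 1, Wfdc21, fell. Each motif was counted on its own, also where it overlapped another. TATAAA was in 4 of the 16 that rose, Serpinb13, Serpinb1a, Serpinb3 and Wfdc18, in 1 of the 17 that did not pass and in 12.9% of 33469 promoters of the same length. The AP-1 motif TGANTCA was in 3 of the 16, Serpinb2, Serpinb3 and Serpinb5, in 1 of the 17 and in 6.34% of all promoters. The STAT motif TTCNNNGAA was in 2 of the 16, Cstb and Serpina11, in 0 of the 17 and in 7.67% of all. The NF-kB motif, 3 G and 2 C with 5 bases of any kind between, was in 3 of the 16, 8 of the 17 and 42.3% of all, and the C/EBP motif TTNNGNAA in 8 of the 16, 11 of the 17 and 37.2% of all. Of the 4 stefin A promoters 0 held TATAAA, the AP-1 motif or the STAT motif, 2 held the NF-kB motif and 2 the C/EBP motif.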

How the data were processed

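Messenger RNA was measured in 6 libraries. The count table deposited by the authors holds unscaled whole counts of reads. In the deposited FPKM table, as its values show, the authors divided each count by gene length and by 1 divisor a library, 0.711 to 1.471 times its total. The submitters' processing notes name DESeq2 1.16.1, HISAT2 2.0.5 and featureCounts 1.5.0-p3 without their roles; build, annotation and counting strand were not given in the sources used here. Columns were matched to samples through the codes in the titles.

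Genes were filtered with filterByExpr, scaled with TMM and fitted with the quasi-likelihood model of edgeR 4.0.16 (R 4.3.3), all 6 libraries together with a term for each group, which leaves 3 residual degrees of freedom. P-values are two-sided, with Benjamini-Hochberg adjustment over the 16398 genes kept, which held 99.91% to 99.96% of each library. The fit was checked on simulated data. Where a group held 0 counts, the fold is a bound computed with 3 counts per library in their place. With 1 to 3 counts in untreated skin, a ratio of count sums over effective library sizes stands with its 95% exact interval. Both cover counting error only. FPKM served only for levels between genes. Alternatives were other scalings, DESeq2 1.42.0, other filters, fits of the compared groups alone, a replicate block and leaving out each library.

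Members were chosen by gene name and the lists of proteases, other inhibitors and markers by hand, all with earlier results of these data known. Values in every library are given for up to 12 members per direction with the largest change past the threshold and at least 1 CPM in the higher group, the 2 most abundant of each family and a fixed set. Other members and proteases were named after their values were seen, and 1 tested member is not reported here. Promoters are those of RefSeq, build GRCr8, matched by symbol.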

Additional observations from a re-analysis of the deposited data

How the results depend on the processing

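The called members kept the sign of their fitted value in every alternative in which they were fitted, also where they no longer passed. Scaled by library size only, 5 uncalled members changed sign for gefitinib, 6 for afatinib and 7 for the mean of both. The members called for gefitinib, 18 in the fit as reported, numbered 17 to 24 under other scalings, filters, DESeq2 and the fit of the groups compared. For the mean of both inhibitors (20 as reported) they numbered 18 to 21, and for afatinib (14 as reported) 13 to 18, apart from the fit of the afatinib and untreated libraries alone, which called 6. For afatinib against gefitinib the fit with no filter called 1 member and the other alternatives 0. DESeq2 called 24 members for gefitinib, 19 higher and 5 lower, and 4682 of all genes against 2906.

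Leaving out 1 library gave 0 to 22 members for gefitinib, 0 to 18 for afatinib, 0 to 21 for the mean of both and 0 to 0 for afatinib against gefitinib. Scaling by library size only moved the median of all genes to 0.73, 0.71 and 0.72 on the log2 scale, and the members' median to 1.54, 1.79 and 1.55.

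The correlation of same-numbered deviations was 0.0405 and 0.0596 between untreated skin and each drug and −0.228 between the drugs. From 2 libraries a group it cannot be told whether same-numbered libraries were paired. With the replicate block 17 members passed for gefitinib, 10 for afatinib, 19 for the mean of both and 0 between the drugs. Of the 18 for gefitinib 16 were shared. With 2 libraries a group, the changes of members with few counts are the least certain.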
